A study of Mus musculus with 9 samples.

Results

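Intergenic whole peaks are places outside genes where engaged RNA polymerase was detected and where the deposited table kept the peak as a single unit instead of splitting it by strand. They were taken as every entry of the authors' peak table with the location Intergenic and the strand code 0, a rule that reads no count. They numbered 4560 of the 42114 entries, which came from 26991 peaks, and all 4560 carried the authors' mark for a regulatory element. Each entry, whole peak or strand of a peak, is called an element here. The classes set beside them are 4685 whole peaks at gene starts, 2473 whole peaks inside genes and 9202 single strands of intergenic peaks. The table holds 1 read count per element and library, so the balance between the strands of an element was not measured, and the word bidirectional rests on the strand code alone.

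Precision run-on sequencing (PRO-seq) lets polymerases that are already on the DNA add a labelled nucleotide, so its reads mark transcription in progress, including short unstable transcripts that never become stable RNA. Active enhancers are transcribed outward on both strands, and the dREG program finds such sites from the shape of the run-on signal at promoters and enhancers alike. Enhancers outside genes act on genes at a distance, and in the red cell lineage they are where GATA1, the factor that drives erythroid maturation, and the progenitor factor GATA2 exchange places on the DNA.

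The cells were mouse erythroid progenitor lines in culture. G1E cells lack GATA1, so none of the groups has the cell's own GATA1, and G1E-ER4 cells are G1E cells that carry GATA1-ER, a GATA1 fused to the hormone-binding part of the estrogen receptor. The 9 libraries fall into 4 groups, untreated G1E (n = 2), untreated G1E-ER4 (0 h, n = 3), and G1E-ER4 after 13 h (n = 2) or 24 h (n = 2) in 100 nM estradiol, which makes GATA1-ER active. All were grown with serum, epoetin and medium conditioned by kit-ligand producing cells. The labels do not say whether libraries of a group came from separate cultures, so each p-value measures only the spread between these libraries. A culture with fewer cells of a type and a culture whose cells hold less polymerase cannot be told apart in bulk libraries.

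Reads in all elements ranged from 15394427 (G1E replicate 2) to 59952454 (0 h replicate 3) per library, and a CPM of 1 (count per 1e+06 reads) stood for 15.1 to 52.9 reads. Levels are CPM after TMM scaling, so they are shares of a library and would not show a change in total transcription per cell. Gene-body reads do not separate the disrupted Gata1 locus from the transgene and check no label, and Gata1 stood at 189 ± 34.8 CPM in G1E and 301 ± 0.195 at 24 h (SD, n = 2 each). A list of 7 erythroid markers summed to 221 to 319 CPM in G1E, 257 to 320 at 0 h, 507 to 677 at 13 h and 1590 to 1850 at 24 h in gene bodies. Granulocyte and monocyte markers summed to at most 1.33 CPM and lymphocyte markers to at most 2.42 CPM in any library, with Ly6c2, S100a8 and S100a9 at 0 reads everywhere. Mast cell and basophil markers summed to 107 to 228 CPM in G1E, 132 to 176 at 0 h, 75.4 to 83.1 at 13 h and 48.7 to 128 at 24 h, with Mcpt8 and Mcpt4 at 0, and megakaryocyte markers to between 122 and 229 CPM in all libraries.

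The intergenic whole peaks were narrower than whole peaks at starts, with a median width of 1551 bases against 3001, and a range of 351 to 9601. The median gap from the edge of an element to the nearest gene start listed in the table was 28352 bases, and the gap exceeded 10 kb for 3565 elements, 100 kb for 729 and 500 kb for 71. The nearest listed start lay with the element on its upstream side in 3165 cases and on its downstream side in 1395. The table names 2 flanking genes for 3983 elements, 1 for 555, more for 12 and none for 10, and 14 elements overlap the end of a gene. They often stood close together. With neighbours joined when under 10 kb apart, 1487 elements formed 650 chains of at least 2, while 3073 stood alone.

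The median level of these elements was lower in each successive group, from the GATA1-null parent to the most mature cells. For G1E the median element read 2.12 and 1.46 CPM, for 0 h 1.15, 0.621 and 0.756, for 13 h 0.462 and 0.36, and for 24 h 0.187 and 0.155. No library of a group overlapped the next group in this order. Whole peaks at starts went the other way, from medians of 44.5 and 40.8 CPM in G1E to 61.6 and 58.3 at 24 h. The number of intergenic whole peaks with at least 1 CPM was 2887 and 2558 in G1E and 1299 and 1288 at 24 h, whereas for start peaks it stayed between 4350 and 4501 in all 9 libraries. G1E had the highest mean of the 4 groups for 2705 elements (59.3%) and the 24 h group for 316 (6.93%). Among start peaks these shares were 15.3% and 48.2%.

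**Figure D1:**
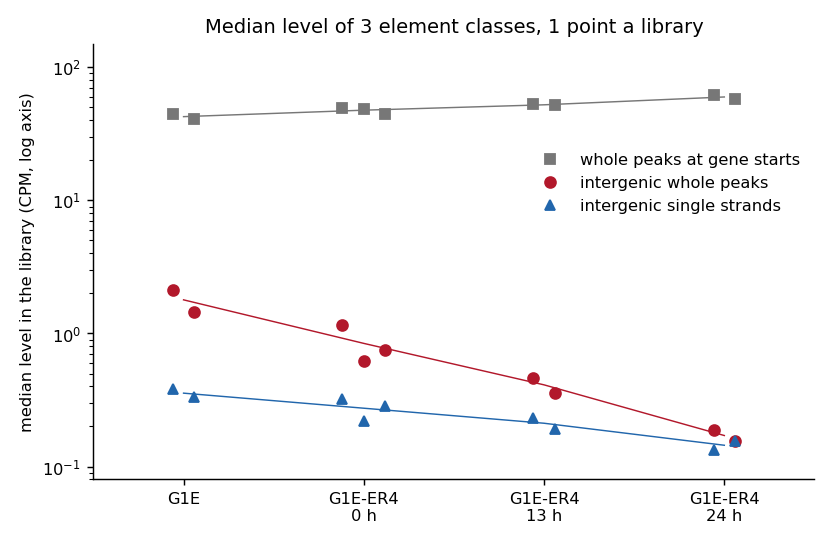
Median level per library (CPM, log axis) of intergenic whole peaks, whole peaks at gene starts and intergenic single strands in the 4 groups; points are libraries and lines join group means. The intergenic whole peaks descend from 2.12 and 1.46 CPM in G1E to 0.187 and 0.155 at 24 h while start peaks lie between 40.8 and 61.6 throughout.

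The class's share of all reads changed less than its median level, and at 24 h its reads were more concentrated on the most read elements. Whether the concentration accounts for the smaller change was not tested. Intergenic whole peaks held 4.74% and 3.87% of all element reads in G1E, 3.87%, 2.99% and 2.81% at 0 h, 3.61% and 3.34% at 13 h, and 3.06% in both 24 h libraries. The share at 24 h thus lay within the range at 0 h. The 100 most read elements of a library held 30.8% and 36.2% of the class's reads in G1E and 59.5% and 62.9% at 24 h. The same share among start peaks stayed between 14.2% and 21%. The entry over the ribosomal RNA precursor gene took 5.07% to 17.4% of the element reads of a library, most in 0 h replicate 3 and least at 24 h, and its part in these shares was not tested beyond leaving it out of the total, which gave 4.53% to 5.32% in G1E and 3.22% to 3.24% at 24 h. Many elements became silent. Of 2512 with at least 1 CPM in both G1E libraries, 584 (23.2%) had under 0.1 CPM in both 24 h libraries and 216 had no read there. From 0 h to 24 h, 167 of 1840 (9.08%) went under 0.1 CPM, against 12 of 4446 start peaks (0.27%) and 105 of 1198 whole peaks inside genes (8.76%).

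Each element was tested by edgeR (quasi-likelihood) in a fit to the counts of all elements, and p-values were adjusted by the Benjamini-Hochberg method over the 35158 elements that passed the filter on low counts, with a threshold of 0.05. Of the 4560 intergenic whole peaks 4024 (88.2%) passed it, and the 536 others had mean levels of at most 0.291 CPM. An element could pass through the single group in which it was high, so the counts below describe tested elements only. At 13 h against 0 h, 1468 elements (36.5%) were lower and 591 (14.7%) higher, beside a background of 18.6% lower and 15.2% higher over all elements (33.8% in either direction). At 24 h against 0 h, 2177 (54.1%) were lower and 487 (12.1%) higher, with a background of 29.5% and 22.7% (52.2% in either direction). The median log2 fold change was -0.95 at 13 h and -1.96 at 24 h, while over all elements it was -0.13 and -0.18.

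Between 13 h and 24 h the movement was almost wholly downward, with 734 elements (18.2%) lower and 68 (1.69%) higher against backgrounds of 7.82% and 5.28% (13.1% in either direction). This count depended on single libraries. It came to 172 called elements without 24 h replicate 2, 423 without 13 h replicate 1 and 527 without 13 h replicate 2, in place of 802, and to 214 with neighbouring library numbers as a block. No 13 h library has a number neighbouring that of a 24 h library, and only 0 h libraries have numbers near both. Time and library number therefore cannot be told apart in a direct comparison of 24 h with 13 h. That also holds for the transient elements and for each change from 13 h to 24 h given below. Without 13 h replicate 2, the elements lower at 13 h against 0 h numbered 964.

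The lines also differed before any hormone was given. At 0 h against G1E, the median log2 difference was -0.77 beside 0.01 over all elements (-0.41 beside 0.09 without G1E replicate 1). In this comparison 1444 elements (35.9%) were lower and 422 (10.5%) higher, against a background of 12.1% lower and 7.18% higher (19.3% in either direction). Without G1E replicate 1 this count was 766 in place of 1866, with 581 lower and 185 higher, and without G1E replicate 2 the number higher was 273. Whole peaks inside genes gave similar shares in each comparison, for example 52.6% lower and 17.5% higher at 24 h against 0 h. Whole peaks at starts did not, with 23.6% lower and 39.2% higher, and intergenic single strands lay between, with 31.0% and 14.6%.

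**Figure D2:**
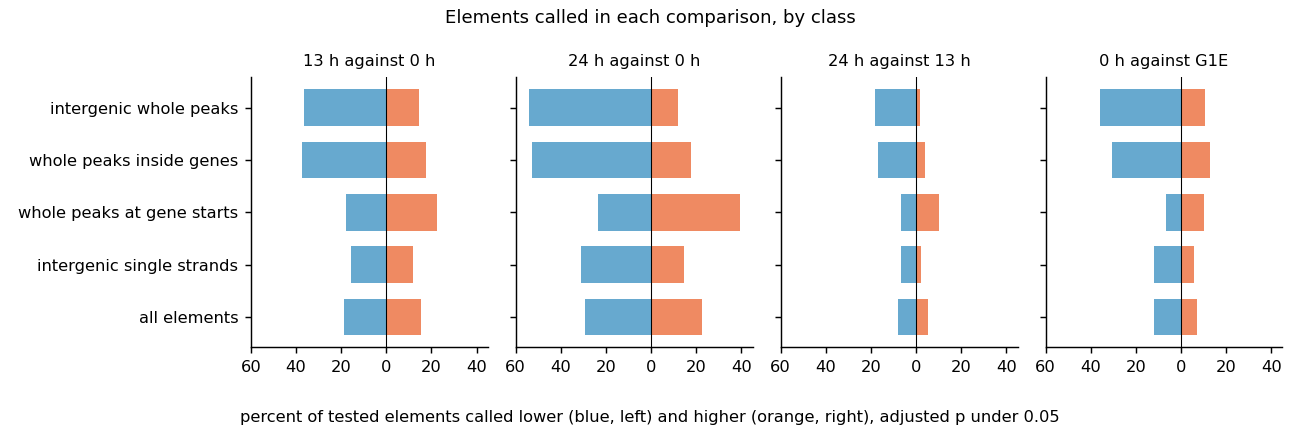
Percent of tested elements called lower (blue, leftward) or higher (orange, rightward) in the 4 comparisons, for intergenic whole peaks and the classes set beside them. Intergenic whole peaks and whole peaks inside genes reach 54.1% and 52.6% lower at 24 h against 0 h, while start peaks reach 39.2% higher.

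Elements far from any listed gene start fell more often than near ones. At 24 h against 0 h the share lower was 47.9% of 916 elements within 10 kb of a start, 50.6% of 1833 at 10 to 50 kb, 59.1% of 679 at 50 to 100 kb and 68.6% of 596 beyond 100 kb. The share higher ran the opposite way, at 16.8%, 13.8%, 8.84% and 3.36%. Far elements were also weaker, with a median of 0.86 CPM beyond 100 kb against 2.29 within 10 kb. Within each of 4 equal bins of the elements by mean level the order held between the end bins, at 40.9% against 56.1% lower in the weakest bin and 45.4% against 76.4% in the strongest. Intergenic single strands showed a like order at lower shares, from 27.5% within 10 kb to 46.4% beyond 100 kb. The share of elements lower at 0 h than in G1E rose with the gap too, from 30.1% to 46.6%.

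**Figure D3:**
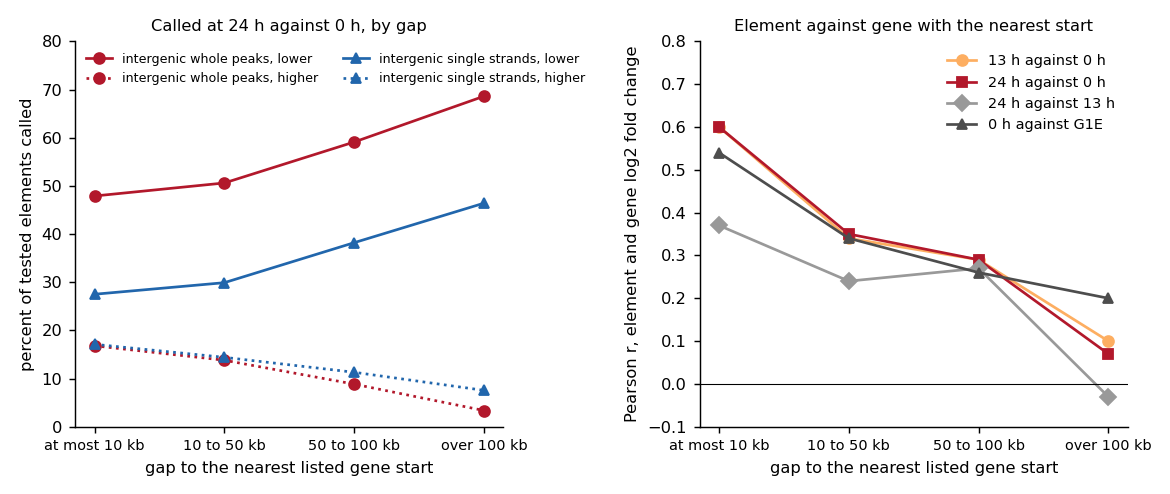
Left, percent of tested elements called lower (solid) or higher (dotted) at 24 h against 0 h by the gap to the nearest listed start, for intergenic whole peaks and single strands; right, Pearson correlation across elements between the log2 fold change of an intergenic whole peak and that of the gene whose start is nearest. The share lower climbs from 47.9% to 68.6% with the gap and the correlation at 24 h against 0 h drops from 0.60 to 0.07.

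Genes beside the elements were read in a separate table of gene-body counts from the same libraries, with all 13825 genes tested in the same design. Of 543 tested genes named beside an element that was higher at 24 h, 258 (47.5%) were higher and 117 (21.5%) lower at 24 h, where the background was 29.0% higher and 30.7% lower over all genes. Of 1808 genes beside an element that was lower, 740 (40.9%) were lower and 417 (23.1%) higher. A gene can stand in both sets. At 13 h against 0 h, 35.8% of 637 genes beside higher elements were higher and 33.3% of 1300 genes beside lower elements were lower, with a background of 20.1% and 20.9%. At 24 h against 13 h these shares were 28.2% of 78 and 19.1% of 752 (background 11.7% and 12.5%), and at 0 h against G1E 19.6% of 434 and 22.2% of 1216 (background 7.88% and 9.58%). The tie to the nearest start weakened with distance. Across elements, the log2 fold changes of element and gene at 24 h against 0 h had a correlation of 0.60 for 693 elements within 10 kb, 0.35 for 1263 at 10 to 50 kb, 0.29 for 436 at 50 to 100 kb and 0.07 for 316 beyond 100 kb. These values describe the same libraries on both axes and carry no test. Where both were called at 24 h, 240 of 307 pairs within 10 kb moved in the same direction, and 48 of the rest were an element that was lower beside a gene that was higher. Most pairs farther apart moved in the same direction as well. These were 375 of 552 at 10 to 50 kb, 142 of 211 at 50 to 100 kb and 108 of 162 beyond 100 kb.

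Neighbouring elements also moved together. For 745 pairs of adjacent intergenic whole peaks under 10 kb apart the correlation of their log2 fold changes was 0.66 at 24 h against 0 h and 0.77 at 0 h against G1E. It was 0.46 and 0.57 for 750 pairs at 10 to 50 kb, and 0.11 and 0.07 for 1783 pairs over 200 kb apart. Of the 378 pairs under 10 kb with both called at 24 h, 359 had the same direction. So did 534 of 752 such pairs over 200 kb apart, in a class with 54.1% lower and 12.1% higher. The longest chains held 6 elements. One on chromosome 4 from 89136000 to 89178601 (mm9) lay between Cdkn2b, an inhibitor of cell cycle kinases, and Dmrta1. Its summed level was 93.8 and 62.8 CPM in G1E, 24.2, 7.95 and 8.87 at 0 h, 10.2 and 5.47 at 13 h, and 3.56 and 1.61 at 24 h, and all 6 elements were lower at 0 h than in G1E. A chain of 6 between Irf2bp2 and Tomm20 on chromosome 8 had all 6 lower at 24 h, from summed levels of 7.17, 3.64 and 7.43 CPM at 0 h to 0.642 and 0.776. A chain of 5 between Rplp1 and Tle3 on chromosome 9 stood apart, since 4 of its elements were higher at 0 h than in G1E, where the sum was 1.75 and 1.13 CPM against 35.8, 8.76 and 11.8, and the same count was lower again at 24 h.

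The authors' table sorts elements into 10 numbered clusters, whose construction is not given in the sources used here, and 1088 of the intergenic whole peaks have none. Clusters 1, 2 and 5 held 901, 868 and 611 of them. In cluster 1 the median fell through all groups, from 5.72 and 3.65 CPM in G1E to 1.79, 1.06 and 1.25 at 0 h, 0.318 and 0.24 at 13 h and 0.107 and 0.124 at 24 h. Cluster 2 was high in G1E alone (2.02 and 1.33 CPM), with at most 0.134 in every G1E-ER4 library. Cluster 5 kept its level at 0 h (7.06, 4.69 and 5.33 CPM beside 7.24 and 5.17 in G1E) and then fell to 0.267 and 0.217 at 24 h. Intergenic whole peaks made up 28.5% of all elements in cluster 1 and 31.3% in cluster 2. They made up 6.47%, 2.94% and 2.15% of clusters 10, 8 and 9, whose medians were higher in every 24 h library than in any 0 h library.

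**Figure D4:**
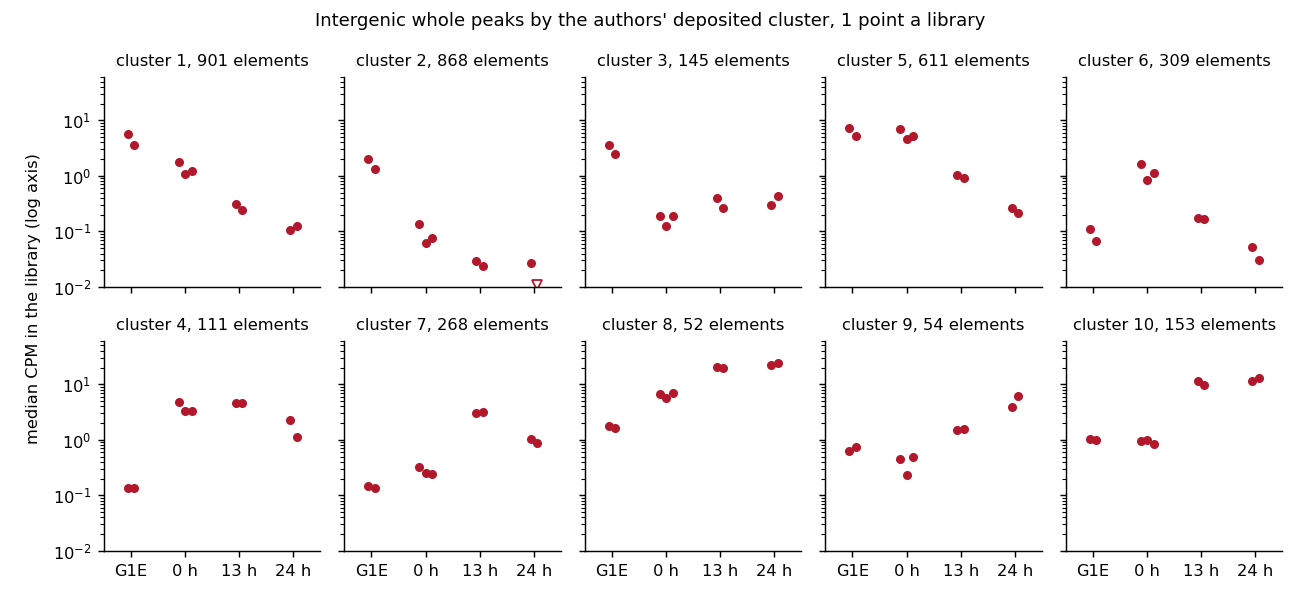
Median CPM (log axis) of the intergenic whole peaks of each of the authors' 10 clusters, 1 point per library; an open triangle at the lower edge marks a median of 0. Clusters 1, 2, 5 and 6 end at 24 h between 0 and 0.267 CPM, cluster 7 is highest at 13 h (3.09 and 3.13), and clusters 8 and 10 are highest from 13 h on.

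A smaller group was active mainly at 13 h. Elements were called transient when their log2 fold change at 13 h was at least 1 and they were lower again at 24 h against 13 h, both past the test. There were 129 among the tested intergenic whole peaks (3.21%), with a background of 1.27% over all elements, and 83 of them lay in the authors' cluster 7. Their median level was 1.18, 0.87 and 0.794 CPM at 0 h, 7.4 and 5.63 at 13 h and 1.74 and 1.4 at 24 h, an order that the selection itself fixes for 13 h against the other times. At 24 h 41 of them were still higher than at 0 h and 7 were lower. Both steps use the 13 h libraries, and the second compares libraries without neighbouring numbers. The count was 14 without 24 h replicate 2, 50 without 13 h replicate 1, 68 without 13 h replicate 2 and 79 without 24 h replicate 1.

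The 5 transient elements with the largest rise were almost silent at 0 h, which choosing them by fold change favours. The element between Hoxb1 and Skap1 (chromosome 11, 96257650 to 96260301) had 0.0803, 0.0311 and 0.0189 CPM at 0 h, 5.26 and 5.56 at 13 h and 0.989 and 0.652 at 24 h, and its log2 fold change at 13 h was 6.91 ± 0.63 (SE; edgeR adjusted p = 4.52e-06). The element between 2810468N07Rik and Sstr5 (chromosome 17, 25700150 to 25702051) had no read in the 3 libraries at 0 h or in G1E, 2.46 and 1.7 CPM at 13 h, and 0.187 and 0.496 at 24 h, at least 84.9-fold higher at 13 h against a floor of 3 reads over the group. The element between Gm13003 and Wnt4 (chromosome 4, 136734450 to 136736951) fell furthest afterwards, from 2.95 and 2.71 CPM at 13 h to 0.134 and 0.124. The call of a return at 24 h was lost for the elements beside Skap1 and Sstr5 without 24 h replicate 2 (edgeR adjusted p = 0.0912 and 0.0964), and for the latter without any of the 13 h or 24 h libraries. Skap1, a T cell signalling adaptor gene, was lower at 24 h in its gene body (log2 -1.85 ± 0.46, edgeR adjusted p = 0.00609), and Hoxb1 had no gene-body read in any library.

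Elements beside genes that hold the progenitor state were lower at 24 h or did not pass the test. Of 40 tested elements beside 10 such genes, 31 (77.5%) were lower at 24 h than at 0 h and 0 higher, where 54.1% of intergenic whole peaks and 29.5% of all elements were lower, and 9 did not pass the edgeR test. The median log2 fold change was -3.72 beside -1.96 for intergenic whole peaks and -0.18 for all elements. At 13 h, 17 (42.5%) were lower and 2 higher, nearer to the 36.5% lower in the class (18.6% of all elements). At 0 h against G1E, 21 (52.5%) were lower and 2 (5.0%) higher. In the class 35.9% were lower and 10.5% higher, and over all elements 12.1% and 7.18%. The 45 elements of this list cluster at few genes, with 17 beside Kit and 7 beside Myb, so they are not independent of each other. Gene bodies of the list did not all fall. That of Fli1 was higher at 24 h against 0 h (log2 1.06 ± 0.38, edgeR adjusted p = 0.0355). Those of Kit, Gata2, Erg and Etv6 were lower, and that of Meis1 did not pass the test.

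Kit encodes the receptor for kit ligand (stem cell factor), which progenitors need and maturing red cells lose, and it is flanked by distal enhancers on its upstream side. The element 112 kb upstream of its start (chromosome 5, 75853900 to 75858601) had 33.4 and 20.4 CPM in G1E, 12.4, 10.8 and 12.9 at 0 h, 0.664 and 0.887 at 13 h, and 0.267 and 0.124 at 24 h. No library at 13 h or 24 h reached the 0 h range, and the log2 fold change was -3.95 ± 0.37 at 13 h (edgeR adjusted p = 5.42e-06) and -5.89 ± 0.44 at 24 h (3.42e-07). The strongest element between Kit and Kdr, which encodes a VEGF receptor, lay at 76220500 to 76224851 and fell from 17.2, 7.33 and 10.5 CPM at 0 h to 0.16 and 0.031 at 24 h, after 72.4 and 56.7 in G1E. Another element of that interval, 186 kb from the Kit start (76157150 to 76159001), declined later, with 14.4, 9.94 and 8.39 CPM at 0 h, 7.14 and 7.12 at 13 h, and 1.07 and 0.559 at 24 h. Its change was -0.62 ± 0.36 at 13 h (edgeR adjusted p = 0.203) and -3.73 ± 0.43 at 24 h (1.21e-05). The element between Kit and Mir7025, 136 kb from the latter (75709050 to 75711651), had 38.5 and 21.8 CPM in G1E, 5.43, 3.79 and 6.54 at 0 h, 2.66 and 2.52 at 13 h, and 3.5 and 3.17 at 24 h. It was lower at 13 h (log2 -1.03 ± 0.33, edgeR adjusted p = 0.028), and at 24 h its difference was -0.66 ± 0.33 (0.104; 0.0236 with the library numbers as a block). Gene-body reads of Kit went from 562 ± 76.6 CPM at 0 h (SD, n = 3) to 75.8 ± 40.8 at 24 h (SD, n = 2), a log2 change of -2.89 ± 0.35 (edgeR adjusted p = 5.61e-05).

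Myb encodes a transcription factor that keeps erythroid progenitors dividing, and the interval between Myb and Hbs1l, a translation rescue factor gene, holds a known series of Myb enhancers. All 7 intergenic whole peaks there were lower at 24 h than at 0 h and also lower at 24 h than at 13 h. Timing differed among them. The element nearest to Myb, 25.3 kb away (chromosome 10, 20906050 to 20910001), had 13.1, 8.92 and 10.2 CPM at 0 h, 12.7 and 7.27 at 13 h, and 2.81 and 3.85 at 24 h, and its change was -0.11 ± 0.33 at 13 h (edgeR adjusted p = 0.833) and -1.69 ± 0.35 at 24 h (0.00127). The element 59.8 kb away (20940600 to 20943251) had already dropped at 13 h, from 14.8, 8.73 and 13.6 CPM to 2.98 and 2.37, and ended at 0.481 and 0.155 (log2 -5.24 ± 0.52 at 24 h, edgeR adjusted p = 3.10e-06). The element 51.5 kb from the Hbs1l start (20961300 to 20964301) stood at 14.7 and 8.87 CPM at 13 h, above the 6.74 to 7.75 of 0 h without passing the test (edgeR adjusted p = 0.174), and then fell to 0.455 and 0.279. Gene-body reads of Myb were 319 ± 134 CPM at 0 h, 63.2 ± 5.34 at 13 h and 11.3 ± 3.67 at 24 h (SD, n = 3, 2 and 2).

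Gata2 is the GATA factor of progenitors, which GATA1 displaces and silences. Its element 3.91 kb upstream (chromosome 6, 88141800 to 88144751) was among the strongest of the key genes, with 120 and 101 CPM in G1E, 115, 120 and 147 at 0 h, 57.5 and 56.5 at 13 h, and 63.7 and 46.8 at 24 h. The fall was complete by 13 h and modest in size (log2 -1.16 ± 0.20, edgeR adjusted p = 0.000734; -1.20 ± 0.20 at 24 h, 0.000272). A second element 80457 bases upstream of the Gata2 start (88065300 to 88068201) had 30.1, 17.9 and 19.3 CPM at 0 h and 18 and 15.1 at 24 h, a difference that did not pass the test (log2 -0.44 ± 0.28, edgeR adjusted p = 0.199), and it was higher at 0 h than in G1E (12.9 and 8.82; 1.04 ± 0.29, 0.0202). Gene-body reads of Gata2 dropped from 154 ± 27.9 CPM at 0 h to 23.8 ± 16.5 at 24 h (SD, n = 3 and 2; log2 -2.70 ± 0.49, edgeR adjusted p = 0.000854). The element between Myc and Pvt1, the long noncoding gene next to Myc (chromosome 15, 61863200 to 61864551), had 1.79, 1.09 and 0.889 CPM at 0 h and no read at 24 h, at least 29.2-fold lower. The call that it was also lower at 24 h than at 13 h (edgeR adjusted p = 0.0134) was lost without 24 h replicate 2 (0.089), 24 h replicate 1 (0.0562) or 13 h replicate 2 (0.0549), and with the library numbers as a block (0.101). Near Lyl1, another progenitor factor gene, the element between Cacna1a and Ier2 (chromosome 8, 87178550 to 87181351) went from 29.0, 18.1 and 22 CPM at 0 h to 3.53 and 5.37 at 24 h. It lay 5.4 kb downstream of the Ier2 start and 44005 bases from that of Lyl1. Both gene bodies were lower at 24 h (log2 -4.05 ± 0.23 for Ier2 and -5.46 ± 0.22 for Lyl1), and which gene the element acts on was not tested.

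Beside mast cell and basophil genes, 11 of 14 tested elements (78.6%) were lower and 2 higher at 24 h against 0 h, where 54.1% of intergenic whole peaks and 29.5% of all elements were lower. Their median log2 fold change was -4.75, beside -1.96 in the class and -0.18 over all elements. The element between Gzmb, which encodes the protease granzyme B, and Atp12a (chromosome 14, 56902750 to 56904701) had 28.5, 24.6 and 51.4 CPM at 0 h, 3.84 and 2.66 at 13 h, and 0.428 and 0.341 at 24 h (log2 -6.48 ± 0.49 at 24 h, edgeR adjusted p = 4.26e-07). The element between Ms4a2, the beta chain of the IgE receptor, and Ms4a6d (chromosome 19, 11685850 to 11689551) fell from 12.8, 11.3 and 19.1 CPM to 0.16 and 0.217 (-6.24 ± 0.45, 2.70e-07). Both higher elements lay beside Srgn, a granule proteoglycan gene that other blood cells express as well, whose gene body was also higher at 24 h (log2 2.05 ± 0.39, edgeR adjusted p = 0.00118). In gene bodies 7 of 9 tested genes of this list were lower at 24 h and 1 higher. Over all 13825 genes tested, 30.7% were lower and 29.0% higher. Of 5 elements beside megakaryocyte genes 4 were lower at 24 h and 0 higher. The gene bodies of the megakaryocyte list were mixed, with 3 of 10 tested genes higher at 24 h and 2 lower. Among the lower elements was that beside Pf4, a platelet chemokine gene (chromosome 5, 91203650 to 91207051). It had 53.0 and 45.5 CPM in G1E, 7.28, 4.13 and 4.2 at 0 h and 0.348 and 0.403 at 24 h.

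Around genes of the erythroid program the elements moved in both directions. Beside erythroid transcription factor genes, 7 of 23 tested elements (30.4%) were higher and 12 (52.2%) lower at 24 h against 0 h. The share lower was near the 54.1% of the class (29.5% of all elements), and the share higher compares with 12.1% in the class and 22.7% over all elements. Zfpm1 encodes FOG1, the partner protein of GATA1. The element 4.64 kb upstream of its start (chromosome 8, 124799700 to 124801401) had 1.47, 1.43 and 2.44 CPM at 0 h, 27.9 and 44.2 at 13 h, and 37.6 and 33.5 at 24 h. It rose by 4.32 ± 0.31 at 13 h (edgeR adjusted p = 7.20e-07) and stayed there, with 24 h against 13 h at -0.02 ± 0.31 (0.989). A stronger element 222790 bases from the Zfpm1 start (124579850 to 124583251) went from 46.0, 23.4 and 20 CPM at 0 h to 191 and 108 at 13 h and 214 and 244 at 24 h, while another in the same interval (124635700 to 124637801) fell from a mean of 1.54 CPM at 0 h to 0.12 at 24 h. Gene-body reads of Zfpm1 were 929 ± 630 CPM in G1E, 299 ± 64.4 at 0 h and 3010 ± 372 at 24 h (SD, n = 2, 3 and 2).

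Bach1 encodes a haem-regulated repressor. Its element on the Grik1 side (chromosome 16, 87738400 to 87739101) had 0.722, 1.03 and 1.04 CPM at 0 h, 8.26 and 15.1 at 13 h, and 11.2 and 17.9 at 24 h (log2 3.96 ± 0.36 at 24 h, edgeR adjusted p = 1.69e-06), and the gene body rose by 4.13 ± 0.21. Klf3, a zinc-finger repressor gene, showed both directions within a single interval. Of 5 elements between Gm3716 and Klf3, the 2 on the Klf3 side were higher at 24 h and the 3 on the Gm3716 side lower. The element 61.2 kb from the Klf3 start (chromosome 5, 65131350 to 65133601) rose from 0.134, 0.186 and 0.359 CPM at 0 h to 1.2 and 7.04 at 24 h. The element 68.5 kb from Gm3716 (65070400 to 65072151) had 29.4 and 26.3 CPM in G1E, 0.589, 0.901 and 2.12 at 0 h, and 0 and 0.0931 at 24 h. The Klf3 gene body was higher at 24 h (log2 1.14 ± 0.13, edgeR adjusted p = 4.86e-05). Beside Runx1, a factor of early blood development, 4 of 6 tested elements were lower and 0 higher at 24 h. In the class 54.1% were lower, and over all elements 29.5%. The Runx1 gene body read 1300 ± 199 CPM at 0 h and 1820 ± 603 at 24 h (SD, n = 3 and 2; edgeR adjusted p = 0.0612). The only element within 100 kb of the start of Klf1, a factor that switches on red cell genes, lay beside Hook2 (chromosome 8, 87508750 to 87511101), with 26.9, 25.4 and 29.1 CPM at 0 h and 32.5 and 48.7 at 24 h. Its call at 24 h against 0 h (log2 0.58 ± 0.22, edgeR adjusted p = 0.0357) was lost under 7 of the alternatives, with p between 0.0542 and 0.227.

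**Figure D5:**
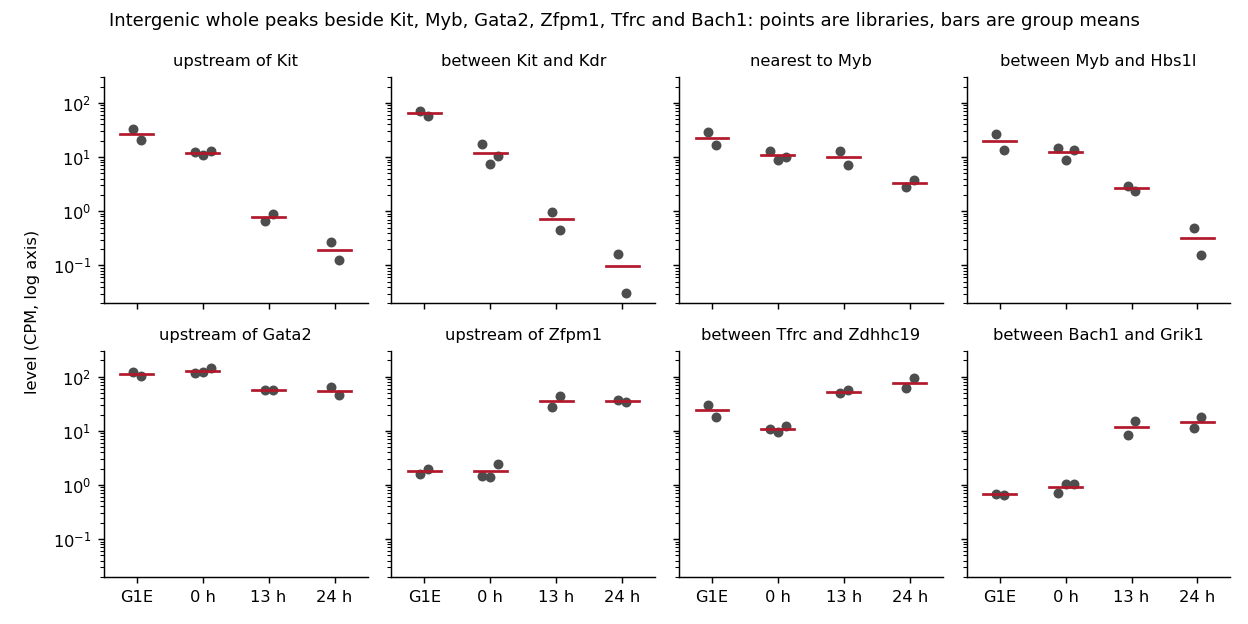
Level (CPM, log axis) of 8 intergenic whole peaks beside Kit, Myb, Gata2, Zfpm1, Tfrc and Bach1 in each library (points) with group means (bars). The element upstream of Kit drops from 12.4, 10.8 and 12.9 CPM at 0 h to 0.267 and 0.124 at 24 h, and the element upstream of Zfpm1 climbs from 1.47, 1.43 and 2.44 to 37.6 and 33.5.

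Few elements of this class lay beside haem synthesis or globin genes, while 14 lay beside 24 red cell membrane and skeleton genes and 16 beside 13 iron genes. No element of the class was named beside, or lay within 100 kb of a listed start of, Gata1, Tal1, Alas2 or Slc4a1. None was named beside Hba-a1 or Hbb-b1, whose starts are not listed singly. The 16 genes of haem synthesis had 2 such elements and the 10 globin genes also 2, both between Hbb-y, the embryonic beta-like globin gene, and Olfr66. The stretch upstream of Hbb-y is where the locus control region of the beta-globin genes lies. The nearer element (chromosome 7, 111007150 to 111010601) had 8.32, 5.84 and 6.75 CPM at 0 h, 25.7 and 11.7 at 13 h, and 28.0 and 31.6 at 24 h (log2 2.10 ± 0.34 at 24 h, edgeR adjusted p = 0.000194), after 16.9 and 9.08 in G1E. The farther one (111013450 to 111014851) rose from 0.455, 0.528 and 0.794 CPM to 2.99 and 4.84, and Hbb-y itself had at most 0.0136 CPM on average in any group.

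Among iron genes, 2 of 14 tested elements were higher and 7 lower at 24 h, near the share lower in the class (54.1%; 29.5% of all elements). The stronger of the higher elements lay between Tfrc, the transferrin receptor gene that supplies iron for haem, and Zdhhc19 (chromosome 16, 32507550 to 32512351). It had 11, 9.45 and 12.2 CPM at 0 h, 49.5 and 56.9 at 13 h, and 61.4 and 93.6 at 24 h (log2 2.83 ± 0.26 at 24 h, edgeR adjusted p = 1.54e-06), and the Tfrc gene body rose by 2.23 ± 0.17. Between Fth1, the ferritin heavy chain gene, and Incenp, 6 elements formed a chain in which 3 of 5 tested were lower at 24 h and all 5 at 13 h, the strongest of them at 0 h (chromosome 19, 10027650 to 10030451) going from 25.6, 15.1 and 19.2 CPM to 1.42 and 2.79. The Fth1 gene body stood at 147 ± 59.8 CPM at 0 h and 134 ± 3.52 at 24 h (SD, n = 3 and 2; log2 -0.13 ± 0.37, edgeR adjusted p = 0.786). Beside red cell membrane genes 7 of 12 tested elements (58.3%) were lower at 24 h and 0 higher, a share lower near that of the class. Of 6 elements between Cd47, which encodes a surface signal against phagocytosis, and Ift57, 3 were lower at 24 h, while the Cd47 gene body rose by 1.14 ± 0.13 (edgeR adjusted p = 3.64e-05).

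The largest increases at 24 h started from levels of at most 2.59 CPM in each 0 h library, and ranking by fold change favours such low starts. The element between Cks2, a cell cycle kinase subunit gene, and Shc3 (chromosome 13, 51723500 to 51725201) had 0, 0.0311 and 0.0189 CPM at 0 h, which is 2 reads in all, 2.89 and 4.15 at 13 h, and 2.83 and 11 at 24 h. The ratio of reads at 24 h was 404, with a 95% counting interval of 111 to 3340 that covers counting error only. The element 1.52 kb upstream of Rhbdd2 (chromosome 5, 136102150 to 136107001) had 2.33, 2.45 and 2.59 CPM at 0 h, 141 in both 13 h libraries, and 486 and 555 at 24 h, a rise of 7.72 ± 0.21 (edgeR adjusted p = 8.43e-11). The gene body of Rhbdd2 rose by 0.57 ± 0.13. The element 11.4 kb upstream of Atg14, an autophagy initiation gene (chromosome 14, 48199550 to 48204351), went from 1.02, 1.18 and 0.529 CPM to 138 and 262 (7.81 ± 0.42, 8.46e-08), and the Atg14 gene body rose by 1.13 ± 0.18. Further large increases at 24 h lay 12.4 kb upstream of Dpep1 (7.30 ± 0.68) and 6.23 kb upstream of Ndufa6, a respiratory complex I gene (7.24 ± 0.33), whose gene bodies rose by 7.03 ± 0.65 and 2.85 ± 0.16.

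The 5 largest decreases at 24 h ended without a read, an end that ranking by log2 fold change favours. The element 77.6 kb from 5430403N17Rik (chromosome 8, 37023600 to 37026351) had 25.6 and 23.9 CPM in G1E, 4.84, 5.84 and 5.12 at 0 h, 0.0289 and 0 at 13 h, and no read at 24 h, at least 122-fold lower. The element 470 kb from Klhl1 (chromosome 14, 97388100 to 97390801) went from 7.6, 6.59 and 8.0 CPM at 0 h to no read at 24 h, at least 172-fold lower, and those between Akap7 and Arg1, Ednra and Ttc29, and Mbnl3 and Rap2c were at least 170-, 114- and 110-fold lower. These 5 elements were at 0 in both 24 h libraries, so the folds are floors set by 3 reads over the group. Among the 3 elements farthest from any listed start, the one with a clear signal lay 1680 kb from Rprl2 (chromosome 3, 23825950 to 23828551), with no flanking gene named, and fell from 15.1, 10.8 and 15.1 CPM at 0 h to 0.134 and 0.155 at 24 h (log2 -6.54 ± 0.41, edgeR adjusted p = 9.11e-08).

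The elements with the highest mean level over all libraries did not share a course. The highest lay between Arl4d and Rdm1 (chromosome 11, 101501250 to 101507601), at 680, 835 and 916 CPM at 0 h and 1140 and 1360 at 24 h (log2 0.62 ± 0.24, edgeR adjusted p = 0.0399). The element between the Mir7676 genes and Tex33 (chromosome 15, 78181950 to 78183201) rose from 59.6, 88.2 and 59.2 CPM at 0 h to 1410 and 749 at 13 h and 1310 and 1300 at 24 h, and that between Hnrnpk and Slc28a3 from 189, 228 and 267 to 721 and 808. The element 2.23 kb downstream of the start of Snhg5, a noncoding host gene of small nucleolar RNAs (chromosome 9, 88413950 to 88415501), fell from 383, 742 and 857 CPM at 0 h to 88.6 and 171 at 13 h and 39.4 and 26.2 at 24 h, and the Snhg5 gene body fell by 3.55 on the log2 scale. The element between Ict1 and Kctd2 read 195, 394 and 431 CPM at 0 h and 288 and 352 at 24 h (log2 -0.09 ± 0.29, edgeR adjusted p = 0.818).

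Some elements were read almost only in 1 line. Of 2512 elements with at least 1 CPM in both G1E libraries, 136 (5.41%) had under 0.1 CPM in every 0 h library, and 48 had no read there. Of 1840 with at least 1 CPM in every 0 h library, 50 (2.72%) had under 0.1 CPM in both G1E libraries. These shares were 0.701% and 1.21% for start peaks and 4.71% and 2.67% for whole peaks inside genes. Start peaks stood at higher levels, so the same cut-off asks for a larger difference there. The largest differences follow. The element between 2010109I03Rik and Ly6e, a surface antigen gene (chromosome 15, 74759050 to 74765301), had 384 and 209 CPM in G1E and no read in the 3 libraries at 0 h, at least 12100-fold lower, and at most 0.0621 CPM later. The Ly6e gene body held 2.12 ± 0.781 CPM in G1E (SD, n = 2) and no read in any G1E-ER4 library. The element between Adam6b and Tmem121 (chromosome 12, 114660650 to 114664701) had 151 and 215 CPM in G1E and 1 read in all at 0 h, and that between 4930572O13Rik and Zmiz1 had 42.4 and 31.7 CPM in G1E and no read at 0 h, at least 1510-fold lower. In the other direction, the element between Chst7 and Mir222 on chromosome X had no read in G1E and 5.0, 6.59 and 9.26 CPM at 0 h, at least 138-fold higher, that between Olfr272 and Olfr273 no read in G1E and 4.95, 6.0 and 4.37 CPM, at least 102-fold higher, and that between Dcpp3 and Sbp 1 read in G1E and 27.1, 54.2 and 23.6 CPM. After estradiol the element between Olfr272 and Olfr273 rose further, to 10.7 and 19.2 CPM at 13 h, while the other two were lower at 24 h than at 0 h.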

How the data were processed

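PRO-seq reads of 9 libraries were aligned to mm9 with BWA, per the submitters' processing notes, and the sources used here do not give versions, counting tool, annotation, settings or the libraries on which dREG peaks were called. The authors deposited raw read counts per dREG peak or strand of a peak and raw read counts per gene body. The authors' p-value of an analysis of variance and the deposited percent of the gene length at which a peak lies were not used. Positions are printed as the table gives them, on mm9. No element sequence was used here.

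The counts of all 42114 elements entered a single edgeR fit (version 4.0.16, R 4.3.3, TMM scaling, filterByExpr, robust quasi-likelihood, 4 group means, 5 residual degrees of freedom), and p-values were adjusted by Benjamini-Hochberg over all elements tested. The gene-body counts were fitted in the same way. The steps were tested on simulated data. Alternatives were other scalings, no filter, whole peaks only, DESeq2 1.42.0, the groups compared only, each library left out, replicate numbers or neighbouring library numbers as a block, and cut-offs for distance and neighbours. Replicate numbers were not taken as pairs, since the labels state no shared batch and not all same-numbered libraries deviated together. The denominator without the ribosomal RNA entry was added after seeing the data. An "at least" fold is set by 3 reads over the group, and counting intervals of 95% cover counting error only.

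The class and the gene lists were chosen with earlier results of these data known, and list counts are descriptions. Named elements are the largest changes of each comparison among elements with a mean count of at least 50 and no overlap between groups (5 each way for 13 h and 24 h against 0 h, 3 each way otherwise), the 5 of highest level, the 5 transient elements of largest rise, the 3 farthest from a start, and up to 4 beside or within 100 kb of the start of each of Gata1, Gata2, Zfpm1, Klf1, Tal1, Kit, Myc, Myb, Lyl1, Alas2, Slc4a1, Hba-a1 and Hbb-b1. Elements named beside other genes, and the chains named, were chosen after their values were seen. Permutation tests planned on the summed reads of the class are not printed, since the class was chosen with results known.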

Additional observations from a re-analysis of the deposited data

Results flagged for a closer look

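The 5 transient elements with the largest rise stood out because their effects at 13 h and at 24 h against 0 h differed, a difference tested as 24 h against 13 h in the same edgeR fit. The log2 difference was -4.42 for the element between Gm13003 and Wnt4, -3.26 for that between Dynll2 and Olfr464, -2.71 for that between Hoxb1 and Skap1, -2.61 for that between 2810468N07Rik and Sstr5 and -1.47 for that between Fcnb and Olfm1. Passing that test downward was part of the definition of a transient element, so these calls lend no separate support. Both libraries at 24 h lay below both at 13 h for each of the 5, an order that the selection favours. The first kept its call with every library left out in turn and lost it with neighbouring library numbers as a block (edgeR adjusted p = 0.303). The elements beside Dynll2 and Skap1 lost it without 24 h replicate 2 (0.0925 and 0.0912) and with that block (0.431 and 0.784), and the former also without 13 h replicate 1 (0.056). The element beside Sstr5 lost it without any of the 4 libraries at 13 h or 24 h (0.0893 to 0.171) and with that block (1.0). The element beside Olfm1 started at 0.0497 and lost its call under 11 alternatives, with p up to 0.314.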

How the results depend on the processing

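Of 1023 repeats of named results under alternatives, 978 kept their direction and their side of the threshold, 44 kept the direction only and 1 passed it newly, and no direction turned. Changes from 13 h to 24 h carried most of this. The number of elements higher at 24 h than at 13 h (68) was 43 with total-count scaling, 38 with gene-body scaling, 112 with whole peaks only and 16 with neighbouring library numbers as a block, where 198 were lower and 214 called in all. With that block 261 elements were higher at 0 h than in G1E. With each library left out in turn, 13 h against 0 h gave 1462 to 2112 elements called (447 to 658 higher, 964 to 1509 lower) and 24 h against 0 h gave 2088 to 2747 (417 to 523, 1659 to 2265). The ranges were 172 to 965 (17 to 82, 155 to 883) for 24 h against 13 h and 766 to 2029 (185 to 452, 581 to 1626) for 0 h against G1E, and transient elements numbered 14 to 191. The log2 ratio of the class's reads to those of start peaks, 24 h minus 0 h, was -0.36, ranged from -0.45 to -0.28 without single libraries, and was -0.7 without the 1% of elements of highest mean level. The same ratio to intergenic single strands was 0.35 (0.16 to 0.5), and the class's share of element reads differed by -0.16 percentage points (-0.37 to 0.16, the latter without 0 h replicate 1). The share lower at 24 h was 55.9% with a gap over 10 kb and 63.5% over 50 kb. Of genes beside higher elements 47.5% were higher, and 51.9% when the gene was that of the nearest listed start within 100 kb. Scaling moved the median over all elements at 13 h against 0 h from -0.13 to 0.05 with gene-body scaling, where the intergenic whole peaks stood at -0.79, and at 24 h against 13 h from -0.08 to -0.25 with total counts. The replicate block gave 2027, 2652, 996 and 1794 called elements for 13 h and 24 h against 0 h, 24 h against 13 h and 0 h against G1E, and changed no call of a named element. Deviations of same-numbered libraries correlated between -0.0476 and 0.455, and the 0 h and 13 h libraries, which also have neighbouring library numbers, gave the highest values (0.455 and 0.395). The causes of these moves were not tested. Depth limits the 536 untested elements, and no absolute change in transcription can be read from shares of a library.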

Other observations

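The short lists of other genes held too few elements to describe a group or to compare with the background. At 24 h against 0 h, 54.1% of the class were lower and 12.1% higher, and over all elements 29.5% and 22.7%. Beside ribosome biogenesis genes 1 of 3 tested elements was higher and 0 lower at 24 h against 0 h, and beside autophagy genes 0 of 3 were higher and 2 lower. Beside granulocyte and monocyte genes 1 of 3 was higher and 2 lower, and the 3 elements beside Rag2, a lymphocyte gene, had 2 lower. Of the 2 beside haem synthesis genes, 1 was higher.

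The decline was present on every chromosome tested. The share of elements lower at 24 h than at 0 h ran from 46.7% on chromosome 17 to 64.5% on chromosome X, and the share higher from 6.54% on X to 18.9% on 17. Elements on the upstream side of their nearest listed start were higher at 24 h in 13.1% of cases and lower in 53.1%, against 9.76% and 56.3% on the downstream side. Of 4 bins by width, the narrowest had a median log2 fold change of -2.18 at 24 h against 0 h and the widest -1.31. From 13 h to 24 h 34.8% of the widest but 5.05% of the narrowest were called lower, with medians of -0.95 and -0.71 and median levels of 9.06 and 0.38 CPM.

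Some groups of elements did not share the decline. A chain of 6 between 1810026B05Rik and Gm4971 on chromosome 7 summed to 288 and 233 CPM in G1E, 231, 243 and 226 at 0 h, 316 and 294 at 13 h and 350 and 331 at 24 h, with 2 of its elements higher and 1 lower at 24 h. A chain of 5 between Irf2bpl and Lrrc74a on chromosome 12 stood at 72.5, 64.7 and 56.8 CPM at 0 h and 75.1 and 43.4 at 24 h, with 1 element higher and 1 lower. The element between Bend7 and Prpf18, a splicing factor gene, was among the few that rose in both steps, from 0.348, 0.218 and 0.265 CPM at 0 h to 5.14 and 3.52 at 13 h and 22.9 and 35.6 at 24 h (log2 2.75 ± 0.35 at 24 h against 13 h, edgeR adjusted p = 0.000897).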
